A study of Mus musculus with 20 samples.

Results

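Microglia of the mouse retina were compared 7 days and 3 days after laser lesioning, to separate the part of their day 3 response that had gone by day 7 from the part that remained and from changes seen only later. Microglia were the wells that the authors' annotation of the retina data calls by that name, in 2 pairs of libraries with 63 and 50 wells at day 7 and 30 and 51 at day 3. These 194 wells are part of 314 annotated microglia, 511 annotated wells of the retina table, 829 annotated wells of the series and 3840 wells sequenced. The 120 microglia of unlesioned retina served as the control.

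The mice were C57BL/6 aged 8 weeks in all 3 groups. The group retina control had no laser lesion, and the groups CNV 3d and CNV 7d were taken 3 and 7 days after laser lesioning, CNV being the usual abbreviation of choroidal neovascularization, the growth of vessels from the choroid that such a lesion induces. Cells were stained for CD45, which marks blood-derived and resident immune cells, and CD11b. CD45+ cells were sorted 1 per well, and transcripts were counted by mCEL-Seq2, a plate method that reads the 3' end of each RNA with a molecular identifier. The 4 libraries of a group form 2 pairs by the prefix P1 or P2 in their labels, and the wells of a pair were summed. Whether a pair comes from its own animals, and which animals were pooled, is not stated, so the p-values measure the spread between these sums, which may be technical.

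Microglia are the resident macrophages of the retina. In healthy tissue they survey it with fine processes, sense nucleotides through purine receptors and express a signature that depends on their surroundings. After injury they lose part of that signature, divide, take up debris and turn on genes for lysosomes, lipids, matrix and antigen presentation. In their dividing state, many genes of mitosis share 2 promoter elements, the cell cycle homology region and CCAAT boxes, whereas genes of the interferon response share the interferon-stimulated response element.

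The promoters of 6 genes are shown because their genes stand for a group that fell between day 3 and day 7 and for one with no call between these times. Each is the 250 bases before the RefSeq start of the gene, written 5′ to 3′ on the gene's strand, build GRCm38.p6. In the 4 mitosis genes the capitals mark the cell cycle homology region (TTTGAA or TTTAAA) and CCAAT, on either strand, so that TTCAAA and ATTGG are the same letters read from the other strand. Top2a, the topoisomerase that untangles chromosomes, lies on the minus strand at chr11:99024190-99024439. Cks1b, a cofactor of cyclin-dependent kinases, lies on the minus strand at chr3:89418292-89418541. Ccnb2, a mitotic cyclin, lies on the minus strand at chr9:70421555-70421804. Ube2c, the ubiquitin conjugase of the anaphase complex, lies on the plus strand at chr2:164769679-164769928. In the interferon genes the capitals mark the interferon-stimulated response element, searched as GAAA, any 2 bases and GAAA again, on either strand and with overlapping matches joined. Cxcl10, a chemokine, lies on the minus strand at chr5:92348890-92349139. Isg15, a ubiquitin-like protein, lies on the minus strand at chr4:156200819-156201068.
Top2a: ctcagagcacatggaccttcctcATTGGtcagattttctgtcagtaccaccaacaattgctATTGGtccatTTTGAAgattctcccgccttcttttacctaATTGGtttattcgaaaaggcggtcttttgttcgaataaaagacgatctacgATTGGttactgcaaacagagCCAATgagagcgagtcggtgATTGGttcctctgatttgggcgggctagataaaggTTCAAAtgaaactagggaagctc
Cks1b: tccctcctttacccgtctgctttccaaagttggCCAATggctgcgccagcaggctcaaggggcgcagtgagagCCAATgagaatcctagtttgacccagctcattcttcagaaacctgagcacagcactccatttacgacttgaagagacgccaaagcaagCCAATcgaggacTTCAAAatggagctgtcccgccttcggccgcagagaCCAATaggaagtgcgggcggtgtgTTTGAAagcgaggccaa
Ccnb2: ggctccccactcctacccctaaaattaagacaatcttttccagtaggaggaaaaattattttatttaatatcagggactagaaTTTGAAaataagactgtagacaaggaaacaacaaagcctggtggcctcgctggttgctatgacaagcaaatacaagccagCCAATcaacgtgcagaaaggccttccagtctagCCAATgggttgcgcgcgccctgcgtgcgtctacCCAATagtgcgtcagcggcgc
Ube2c: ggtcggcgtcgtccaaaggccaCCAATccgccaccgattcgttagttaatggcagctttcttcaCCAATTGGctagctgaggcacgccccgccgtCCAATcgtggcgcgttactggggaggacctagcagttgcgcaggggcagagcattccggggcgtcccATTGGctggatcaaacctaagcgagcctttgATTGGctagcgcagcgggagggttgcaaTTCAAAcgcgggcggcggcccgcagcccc
Cxcl10: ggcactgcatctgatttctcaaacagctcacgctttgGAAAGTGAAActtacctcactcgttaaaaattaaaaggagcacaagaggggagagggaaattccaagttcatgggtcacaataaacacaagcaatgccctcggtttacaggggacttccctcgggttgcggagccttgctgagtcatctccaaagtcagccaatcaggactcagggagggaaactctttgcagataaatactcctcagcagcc
Isg15: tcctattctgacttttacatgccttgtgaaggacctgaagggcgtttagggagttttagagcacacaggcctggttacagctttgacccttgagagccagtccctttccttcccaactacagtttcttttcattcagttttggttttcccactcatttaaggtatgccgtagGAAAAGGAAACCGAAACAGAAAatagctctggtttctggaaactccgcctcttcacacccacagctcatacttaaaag

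Of the mitosis list, 32 of 40 genes matched the promoter table, with 33 windows of 300 bases (250 before to 50 after a start). A cell cycle homology region lay in 84.8% of these windows and in 27.6% of all 32851 windows in the table. CCAAT lay in 84.8% against 37.4%, and both elements in 78.8% against 10.7%. Of the 12 windows of mitosis genes that were lower at day 7, 91.7% held a cell cycle homology region and 91.7% a CCAAT. Among genes of the chromatin list, 82.4% of windows held CCAAT. The interferon-stimulated response element lay in 45.5% of the windows of the interferon list and in 3.44% of all windows. Over the genes that rose by day 3 and fell by day 7, these shares were 28.9% for the cell cycle homology region and 41.4% for CCAAT. A match says only that the letters are present.

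The summed microglia held 109506 and 218307 estimated transcripts at day 3 (pairs P1 and P2), 153697 and 113016 at day 7, and 65283 and 147133 in control. The pairs had 30 and 51 wells at day 3, 63 and 50 at day 7, and 32 and 88 in control. The median well held 2740 and 2742 transcripts at day 3, 2230 and 2173 at day 7, and 1892 and 1531 in control. Median mitochondrial shares were 13.3% and 12.7% at day 3, 10.4% and 10.5% at day 7, and 6.91% and 9.57% in control. All 10 microglia markers, among them P2ry12 and Tmem119, were detected and tested. The deposited annotation holds another call, made by signature genes. It agreed for 20 of 30 and 40 of 51 wells at day 3 and for 53 of 63 and 46 of 50 at day 7. It named lymphocytes, macrophages or monocytes in 3 and 5 wells at day 3 and in 8 and 2 at day 7, and left the rest unassigned. Dendritic cell markers stayed too low to test, with summed levels of 63.9 to 256 CPM (counts scaled to a common total per pair) over the 6 pairs. One of 11 border macrophage markers was high enough to test and was not called.

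Day 7 differed from day 3 in 322 of 3408 genes tested, 9.45% (edgeR's quasi-likelihood test with Benjamini-Hochberg adjustment over all genes, adjusted p under 0.05). Of these, 153 were higher at day 7 (4.49% of genes tested) and 169 were lower (4.96%). For the same cells, day 3 differed from control in 766 genes (22.5%), 407 higher (11.9%) and 359 lower (10.5%). Day 7 differed from control in 62 genes (1.82%), 47 higher (1.38%) and 15 lower (0.44%). All genes together barely shifted, with a median log2 difference of 0.03 for day 7 against day 3. The 3 contrasts share samples, so the sizes of the classes built from them are descriptions. The count of 322 rested in part on single pairs. It became 186 without pair P2 of day 3, 210 without pair P1 of day 7 and 542 without either control pair.

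Genes fell into resolving, sustained and late classes. Resolving genes were called at day 3 against control and called back the opposite way at day 7. There were 137 resolving rises, whose median log2 difference from control went from 1.74 at day 3 to 0.25 at day 7, and 101 resolving falls, which went from -1.78 to -0.25. Sustained genes were called the same way against control at both times and not called between them, and comprised 38 rises (median log2 1.29 at day 3 and 1.07 at day 7) and 12 falls (-1.67 and -1.17). Late genes were called between day 3 and day 7 but not at day 3 against control. The 52 that were higher and the 32 that were lower at day 7 mostly crossed the control level, with medians of -0.82 and 0.61 for the first and 0.81 and -0.70 for the second. Cadm2, H2-Aa and H2-D1 were the late genes also called against control at day 7, and 0 genes were called the same way in both steps. Cadm2, a cell adhesion molecule, had 31 transcripts at day 7 against 2 at day 3 and 1 in control. Its call against day 3 was lost without pair P2 of day 3 or either day 7 pair (edgeR adjusted p = 0.101, 0.267 and 0.0563) and without the wells of dividing cells described below (0.292). Of the 407 genes higher at day 3, 232 met neither call at day 7, so that the test assigned them to no class. The same held for 246 of the 359 lower genes. Over all 407 higher genes the median log2 difference from control went from 1.4 at day 3 to 0.6 at day 7. Over all 359 lower genes it went from -1.7 to -0.6. Without pair P1 of control there were 92 sustained, 162 resolving falls and 179 late genes. Without pair P2 of control there were 338 late genes, and without pair P1 of day 3, 60 resolving falls and 93 sustained genes. Without pair P2 of day 3 there were 82 resolving rises, 57 resolving falls and 47 late genes. Without pair P1 of day 7 there were 72 resolving rises and 45 late genes, and without its pair P2 there were 52 resolving falls.

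**Figure D1:**
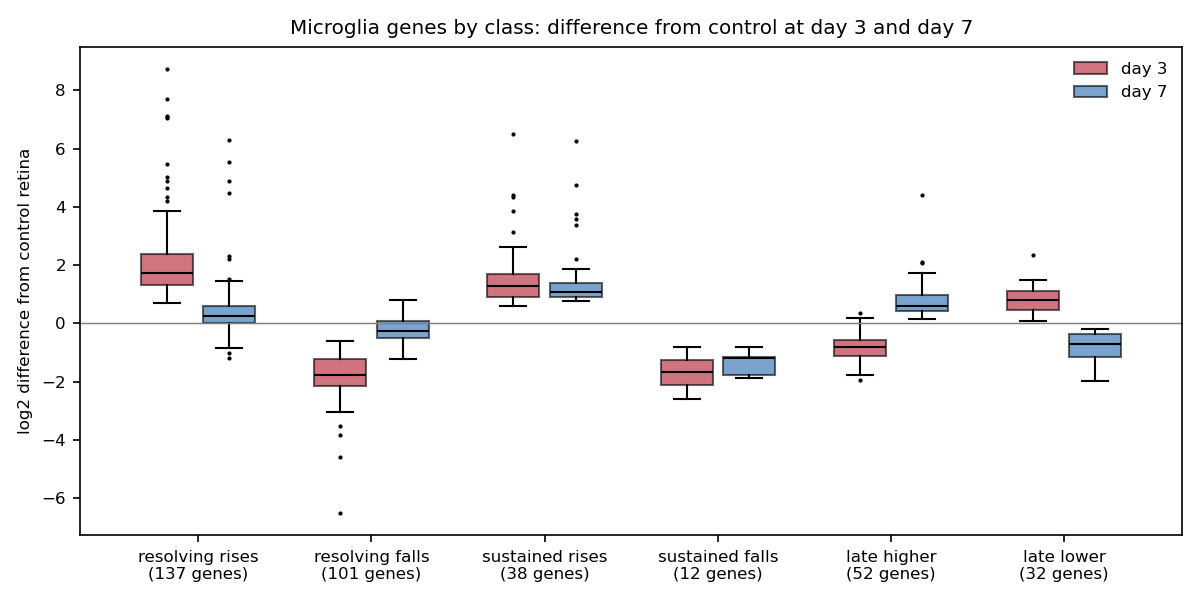
Box plots of the log2 difference from control retina (vertical axis) for the genes of each class at day 3 (red) and day 7 (blue), with the median as a line, the quartiles as box and outlying genes as points. Resolving genes lie near 0 at day 7 (medians 0.25 and -0.25), sustained genes stay away from it (1.07 and -1.17), and the medians of late genes change side. The genes were sorted into classes by calls on these same data, so this pattern follows in part from the sorting.

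Transcripts of dividing cells had largely left the microglia by day 7. Of 22 tested mitosis genes, 15 fell from day 3 to day 7 and 0 rose, against 4.96% and 4.49% of all genes, with a median log2 of -2.61. All 15 were resolving rises. All 40 listed genes were detected, and members such as Cks1b passed the filter on low counts only through day 3. That filter favours falls among the members tested. The following sum takes all 40. The summed level of the mitosis list was 996 and 802 CPM in control, 6822 and 4168 CPM at day 3, and 573 and 1274 CPM at day 7, so both day 3 pairs lay above all others. With 1 pair left out, the members that fell were 11 of 24 and 13 of 25 tested (without pairs P1 and P2 of day 3), 11 of 32 and 18 of 35 (without P1 and P2 of day 7), and 23 of 35 and 22 of 32 (without P1 and P2 of control). For Top2a, the levels were 0 and 27.2 CPM in control, 447 and 339 at day 3 and then 0 and 17.7 at day 7. In transcripts, 123 were counted at day 3 and 2 at day 7, and scaled by the totals the second was 0.02 of the first (95% counting interval 0.00239 to 0.0737; adjusted p = 1.63e-05 by edgeR). Ube2c stood at 46.0 and 20.4 CPM, then 402 and 293, then 0 and 35.4 (log2 -4.40 ± 0.61 SE, day 7 against day 3, edgeR adjusted p = 0.000103). Cks1b had 40 transcripts at day 3 and 0 at both other times, at least 10.9-fold lower at day 7 (3 transcripts over the group as the floor). Ccnb2 had 43 transcripts at day 3 and 1 at day 7, and its call was lost without pair P1 of day 3 (edgeR adjusted p = 0.0913). Mki67, the usual proliferation marker, had 685 and 215 CPM at day 3 and 13 and 88.5 at day 7, and missed the threshold (edgeR adjusted p = 0.108). It was past it in 5 of the 6 fits that leave out 1 pair, all but the one without pair P1 of day 7 (0.0995).

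Single wells showed where these transcripts sat. At least 4 of the 40 mitosis genes were detected in 19 of 30 and 19 of 51 microglia wells at day 3 (63.3% and 37.3%), 2 of 63 and 6 of 50 at day 7 (3.17% and 12%), and 1 of 32 and 4 of 88 in control. Over both pairs the shares were 46.9% at day 3 (95% Wilson interval 36.4 to 57.7%) and 7.08% at day 7 (3.63 to 13.3%), intervals that cover counting error only. The wells differ in depth. After every well had been thinned to 1000 transcripts, which left out no well, the counts were 15 of 30 and 13 of 51 at day 3, 0 of 63 and 2 of 50 at day 7, and 1 of 32 and 1 of 88 in control. At least 10 of the genes were found in 14 and 11 wells at day 3 and in 0 and 2 wells at day 7. A looser count, 2 or more genes of the replication and mitosis lists together, took 91.4% of day 3 wells, 65.5% of day 7 wells and 50.8% of control wells, so it includes many wells with little of either list. The wells with at least 4 mitosis genes, called dividing wells from here on, held 79.6% and 48.8% of the transcripts of the day 3 pairs. Of the dividing wells at day 3, 11 of 19 and 14 of 19 were also microglia by the signature call, against 9 of 11 and 26 of 32 of the other wells. The limit of 4 genes was chosen after the data were seen.

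**Figure D2:**
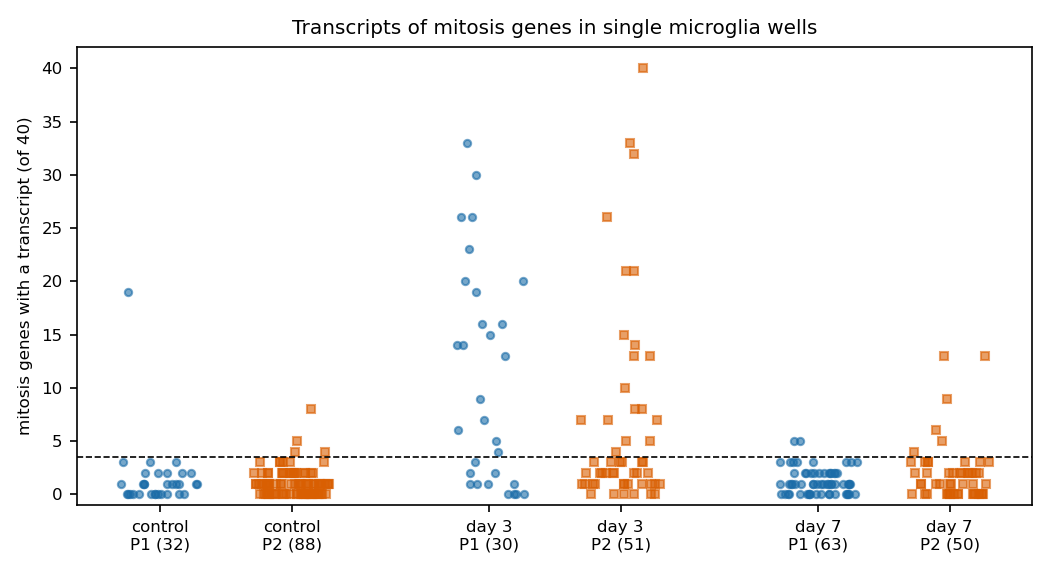
Number of the 40 mitosis genes with a transcript (vertical axis) in each microglia well, by time and library pair (number of wells in brackets, P1 circles and P2 squares), with a dashed line below 4 genes. Wells above the line are 19 of 30 and 19 of 51 at day 3 and 2 of 63 and 6 of 50 at day 7 (P1 and P2).

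The dividing wells bear on the counts of called genes above. Those between day 7 and day 3, and the classes, were therefore also computed without them. In the remaining wells (11 and 32 at day 3, with 22359 and 111785 transcripts), 22 of 2604 tested genes were called between day 7 and day 3, 8 higher and 14 lower, and 21 of these are among the 322. An unadjusted p under 0.05 was reached by 298 genes. Of the 273 genes of the 322 that could still be tested, 270 kept their sign. Their median log2 went from -1.18 to -0.87 for the lower genes and from 1.47 to 1.13 for the higher ones. There were then 13 resolving rises, 4 resolving falls and 5 late genes, while 42 genes were sustained, 32 of them among the 50 sustained in all wells. The genes called in both are named with their groups below. Fewer wells and lost dividing cells both change in this step, and their parts cannot be told apart.

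Genes that accompany division went the same way, where 4.96% of all genes tested fell and 4.49% rose. Of 28 detected genes of DNA replication, 6 were high enough to test, a filter that again favours members high at day 3. Of 6 tested genes of DNA replication, 2 fell (Mcm6, a helicase subunit, and 2810417H13Rik, a clamp-associated factor) and 0 rose. Mcm6 went from 137 and 128 CPM at day 3 to 26.0 and 26.5 at day 7, and lost its call without either day 3 pair or pair P1 of day 7 (edgeR adjusted p = 0.0594, 0.239 and 0.101). With 1 pair left out, 1 (without pair P1 of day 3 or of day 7) to 9 replication genes (without pair P1 of control) fell. Of 16 tested chromatin genes of dividing cells 9 fell and 0 rose, and between 3 (without pair P1 of day 7) and 13 (without either control pair) fell with 1 pair left out. Hmgb2, a DNA-bending protein, had 230 and 122 CPM in control, 794 and 508 at day 3 and then 91.1 and 132.7 at day 7 (log2 -2.53 ± 0.35 SE, edgeR adjusted p = 8.3e-05). In wells other than the dividing ones its log2 difference was -0.25 ± 0.62 (edgeR adjusted p = 0.929). H2afz, a histone variant, fell by 1.62 ± 0.27 SE on the log2 scale (edgeR adjusted p = 0.000721). Both held in the 6 fits that leave out 1 pair. Of the chromatin genes 0 of 10 were called without the dividing wells.

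Genes of the cytoskeleton were lower at day 7, where 4.96% of all genes tested fell and 4.49% rose. Of 21 tested actin and tubulin genes 15 fell and 0 rose, and their summed level was 53440 and 53090 CPM at day 3 against 20590 and 21930 at day 7 and 22590 and 19680 in control. Between 11 and 18 of the 21 fell when 1 pair was left out. Actb, cytoplasmic actin, stood at 7904 and 6382 CPM in control, 18702 and 18721 at day 3 and then 4776 and 5849 at day 7 (log2 -1.81 ± 0.18 SE, edgeR adjusted p = 7.59e-07). The day 3 pairs lay above all 4 others. Without the dividing wells Actb still fell, by 1.44 ± 0.17 on the log2 scale (edgeR adjusted p = 1.52e-05), from 12480 and 15790 to 4551 and 5430 CPM. Tmsb4x, which binds actin monomers, and Actg1 fell with and without those wells (log2 -1.14 ± 0.16 and -1.22 ± 0.19 SE in all wells, edgeR adjusted p = 0.000119 and 0.000264). Without dividing wells 3 of 18 tested members fell.

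Of 12 glycolysis genes 4 were lower at day 7 and 0 higher, a count that fell to 1 without pair P2 of day 3 or pair P1 of day 7, and to 2 without either of the other laser pairs. Over all genes tested, 4.96% were lower and 4.49% higher. Gapdh, a glycolytic enzyme, rose from 796 and 435 CPM in control to 2685 and 2863 at day 3 and fell to 1126 and 920 at day 7 (log2 -1.43 ± 0.22 SE, edgeR adjusted p = 0.000228). It was also lower without the dividing wells (log2 -1.10 ± 0.26, edgeR adjusted p = 0.0447). Ldha, Tpi1 and Pgk1 were called and each lost its call without 3 or more of the 4 laser pairs in turn (highest edgeR adjusted p 0.217, 0.173 and 0.333). Of 40 nuclear genes of the respiratory chain 5 were lower and 0 higher, and between 0 and 8 were lower when 1 pair was left out.

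**Figure D3:**
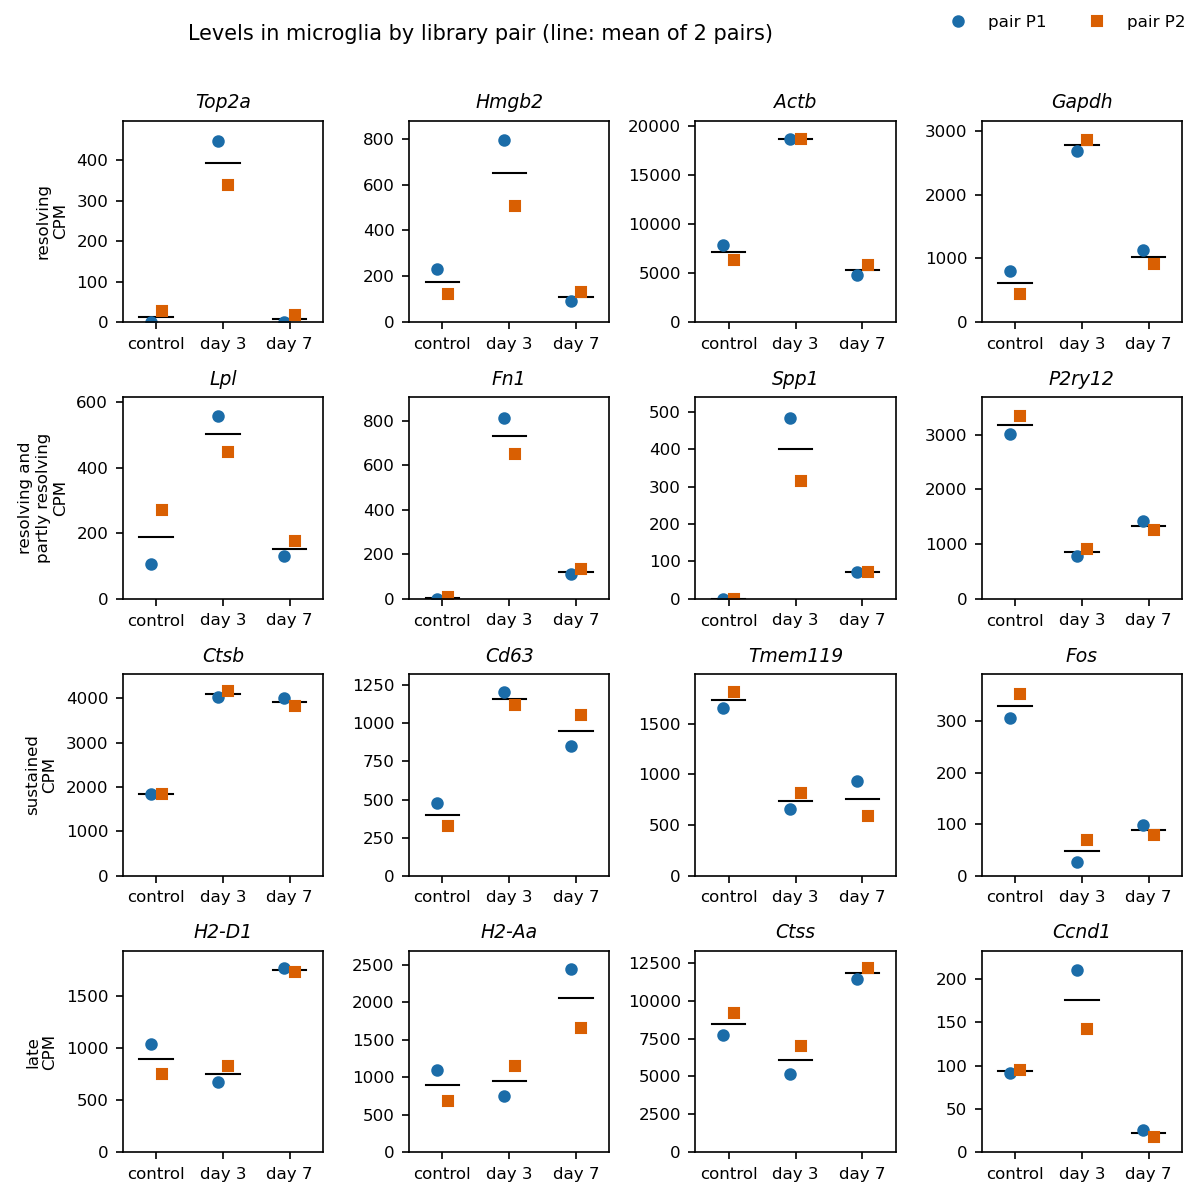
CPM (vertical axes, each from 0) of 16 genes in control, at day 3 and at day 7, 1 panel a gene, with pair P1 as circles, pair P2 as squares and the mean as a line. The rows run from resolving genes (such as Actb, high at day 3 only) through partly resolving and sustained genes (such as Ctsb, 4018 and 4173 CPM at day 3 and 4001 and 3831 at day 7) to late genes (such as H2-D1, high at day 7 only).

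Some genes of matrix and lipid uptake that mark lesion-associated microglia were lower at day 7. Over all genes tested, 4.96% were lower and 4.49% higher at day 7, and 11.9% were higher at day 3 against control. The list of lesion and disease-associated microglia had 7 of 26 tested genes lower and 2 higher at day 7, and 17 higher at day 3 against control. Its summed level was not lower at day 7, with 34800 and 39550 CPM at day 3 and 43280 and 43250 CPM at day 7. That sum includes Apoe, which had 359 to 4162 CPM in single day 3 libraries and 8344 to 12540 in those of day 7. The sum of the list without Apoe was not computed, so this sum does not give the direction of the other members. Over the 26 tested members the median log2 was -0.31 for day 7 against day 3. Without pair P1 of day 7, 4 of 26 were lower and 0 higher. Of the matrix list 4 of 16 genes were lower and of the lipid list 4 of 10, and 0 were higher in either. Each of these counts of 4 became 2 without pair P2 of day 3 or pair P1 of day 7. Fn1, fibronectin, had 0 and 6.80 CPM in control, 813 and 650.5 at day 3 and then 110.6 and 132.7 at day 7 (log2 -2.58 ± 0.31 SE, edgeR adjusted p = 1.63e-05). In all wells it remained above control at day 7, with 32 transcripts against 1. Without the dividing wells that difference from control was not called (log2 3.42 ± 1.20 SE, edgeR adjusted p = 0.119). Spp1, osteopontin, was at 0 in control, at 484 and 316 CPM at day 3, and at 71.6 and 70.8 at day 7 (log2 -2.44 ± 0.38 SE, edgeR adjusted p = 0.000273). Its transcripts were in 6 of 30 and 15 of 51 wells at day 3, in 5 of 63 and 5 of 50 at day 7, and in 0 of 120 control wells, where 3 wells would make 2.5%, a limit on wells with a transcript and not on cells that express the gene. A single well held 71.8% of the Spp1 transcripts of pair P1 at day 3, and a single well held 80% of those of Fn1 in pair P2 of day 7. With 1 pair left out, the log2 difference ran from -2.73 to -2.42 for Fn1 and from -2.74 to -2.19 for Spp1. Spp1 lost its call among wells also called microglia by signature, and with each well thinned to 1000 transcripts.

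These genes differed in how far they went with division. Spp1 stood at 599 and 564 CPM in the dividing wells of day 3, the first value resting largely on the single well named above. In the 2 and 6 dividing wells of day 7 it stood at 433 and 45.7 CPM. In the other wells Spp1 had 44.7 and 80.5 CPM at day 3, close to 54.5 and 76.8 at day 7, and was too low to test. Fn1 had 313 and 519 CPM in the other wells at day 3 and 102 and 11 at day 7, and its fall was called among them (log2 -2.75 ± 0.53 SE, edgeR adjusted p = 0.00718). Lpl, lipoprotein lipase, had 107 and 272 CPM in control, 557 and 449 at day 3 and then 130 and 177 at day 7 (log2 -1.71 ± 0.34 SE, edgeR adjusted p = 0.00259). In the other wells Lpl had 671 and 510 CPM at day 3 and fell by 2.14 ± 0.41 on the log2 scale (edgeR adjusted p = 0.00422). Ch25h, which makes 25-hydroxycholesterol, had 78 transcripts at day 3, 7 at day 7 and 1 in control (log2 -3.16 ± 0.57 SE, day 7 against day 3, edgeR adjusted p = 0.00112). It was called without the dividing wells as well (log2 -4.54 ± 0.99 SE, edgeR adjusted p = 0.0147). Fabp5 and Plin2, a fatty acid carrier and a lipid droplet coat protein, had 3 and 4 transcripts at day 7 against 35 and 41 at day 3. Fabp5 lost its call without pair P1 of day 7 (edgeR adjusted p = 0.183), and Plin2 lost its own without that pair or pair P2 of day 3 (0.0791 and 0.262).

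**Figure D4:**
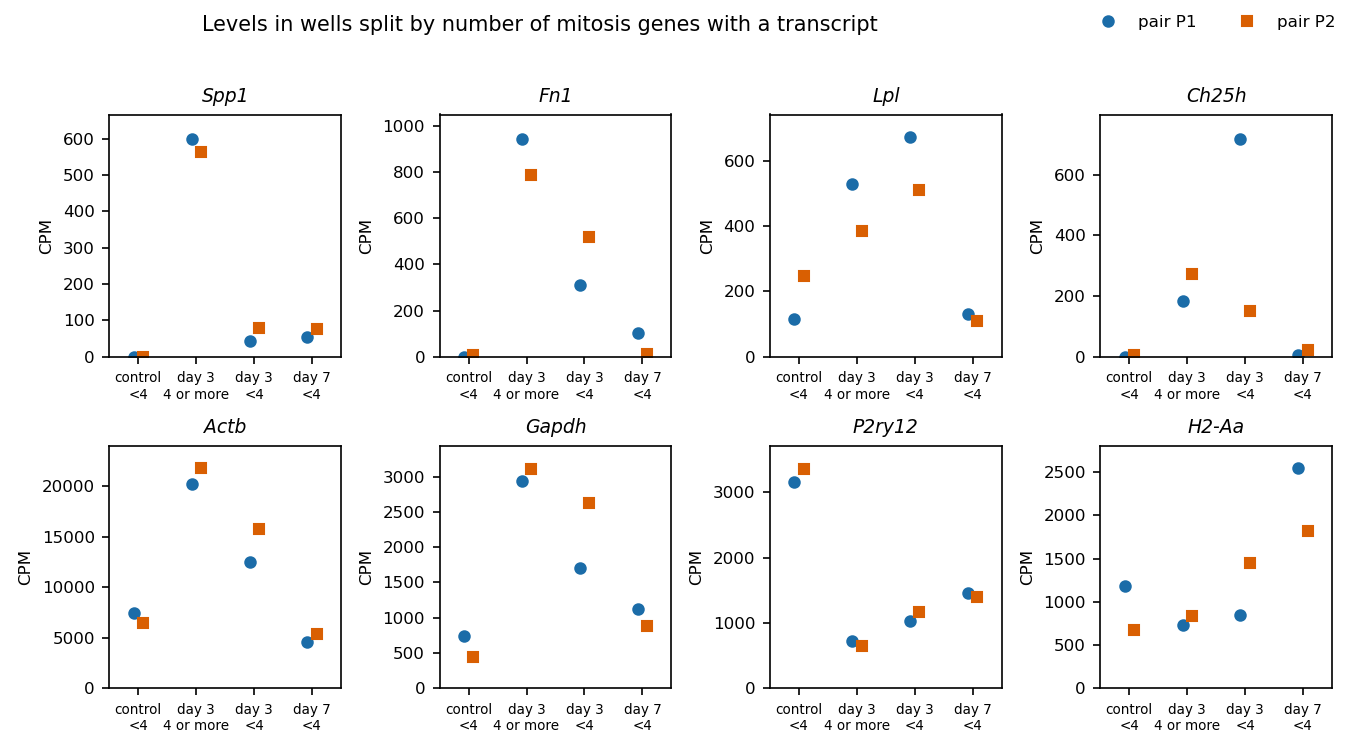
CPM (vertical axes, each from 0) of 8 genes in wells with fewer than 4 mitosis genes of control, in wells with 4 or more at day 3, and in wells with fewer than 4 at day 3 and at day 7, for pairs P1 (circles) and P2 (squares). Of the wells drawn, Spp1 is high only in the dividing wells of day 3, where a single well held most of its transcripts in pair P1. Lpl is high in both kinds of day 3 wells. The dividing wells of day 7 are not drawn.

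Apoe, the lipid carrier, had its highest levels at day 7, and its call depended on the day 3 pairs. It had 613 and 1210 CPM in control, 831 and 3852 at day 3 and then 9538 and 10981 at day 7. Both day 7 pairs lay above all others, but the day 3 pairs differed widely, and the difference between day 7 and day 3 was 2.10 ± 0.88 SE on the log2 scale (edgeR adjusted p = 0.271). Without pair P1 of day 3 it was called (log2 1.36, edgeR adjusted p = 1.88e-06), and likewise without pair P2 (log2 3.63, edgeR adjusted p = 1.71e-06), each with a lone day 3 sum that is taken to vary like the other groups. Apoe transcripts were found in 52 of 63 and 48 of 50 wells at day 7, against 14 of 30 and 39 of 51 at day 3. Thinned to 1000 transcripts, the wells with Apoe were 43 and 47 at day 7 and 8 and 31 at day 3.

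A smaller group of genes stayed high. Ctsb, a lysosomal cysteine protease, had 1838 and 1842 CPM in control, 4018 and 4173 at day 3 and then 4001 and 3831 at day 7. Against control its log2 difference was 1.12 ± 0.17 SE at day 7 (edgeR adjusted p = 0.002), and between day 7 and day 3 it was -0.06 ± 0.17. Cd63, a tetraspanin of late endosomes, had 475 and 326 CPM, then 1205 and 1118, then 852 and 1053. Grn, the lysosomal protein progranulin, had 1762 and 1590 CPM, then 2804 and 3083, then 3142 and 3424. Ftl1, the ferritin light chain, and Cd52, a surface glycoprotein, were also sustained, with log2 differences from control at day 7 of 1.43 ± 0.22 and 1.33 ± 0.22 SE. Between day 7 and day 3 they differed by -0.56 and -0.60 on the log2 scale, which passed the test without either control pair (edgeR adjusted p = 0.0222 and 0.0211 for Ftl1, 0.0149 and 0.0141 for Cd52), so that their place in this class depends on the fit. Axl, a receptor for dying cells, had 61.3 and 190 CPM in control, 283 and 453 at day 3 and then 534 and 504 at day 7, where it was called against control (log2 1.88 ± 0.36 SE, edgeR adjusted p = 0.0078). These 6 genes stayed past the threshold against control at day 7 in all 6 fits that leave out 1 pair. Itgax, the integrin CD11c, had 1 transcript in control, 26 at day 3 and 40 at day 7, and missed the threshold without pair P2 of control (edgeR adjusted p = 0.066). Ctsb, Cd63, Axl and Itgax were also called against control at day 7 without the dividing wells (edgeR adjusted p = 0.002 to 0.008). That a gene was not called between day 3 and day 7 does not show that its level was the same.

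Ribosomal protein genes made up much of the sustained class. Of 71 tested, 59 were higher at day 3 against control and 20 at day 7 against control (backgrounds 11.9% and 1.38%), while 2 were lower at day 7 than at day 3. Their summed level was 41300 and 38440 CPM in control, 70090 and 69860 at day 3 and then 61910 and 67520 at day 7. With the genes that the authors left out, 28 genes were sustained in place of 50.

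The signature of resting microglia had returned in part. Among all genes tested, 10.5% were lower at day 3 and 0.44% at day 7 against control. Between the laser times 4.49% of all genes rose and 4.96% fell. Of 31 tested genes, 22 were lower at day 3 against control, 6 were lower at day 7 against control, and between day 3 and day 7 there were 5 that rose and 1 that fell. The number that rose was 2 without pair P1 of day 3 or either day 7 pair, 7 without pair P2 of day 3, and 9 and 10 without pairs P1 and P2 of control. Gpr34, a lysophospholipid receptor, had 1762 and 2120 CPM in control, 466 and 508 at day 3 and then 1041 and 964 at day 7. It rose from day 3 (log2 1.04 ± 0.21 SE, edgeR adjusted p = 0.00298) and was still lower than in control (log2 -0.93 ± 0.20 SE, edgeR adjusted p = 0.015). P2ry12, the purine receptor that guides processes to injury, had 3002 and 3344 CPM, then 785 and 912, then 1418 and 1256 (log2 0.65 ± 0.19 SE, edgeR adjusted p = 0.033 against day 3). Leaving out any of the 4 laser pairs took the P2ry12 call away (edgeR adjusted p from 0.0671 to 0.285). Cd33, an inhibitory sialic acid receptor, rose from 274 and 312 CPM to 735 and 575, near the 597 and 625 of control (log2 1.16 ± 0.24 SE, edgeR adjusted p = 0.00438), a call lost without pair P1 of day 7 (adjusted p = 0.0639). None of the 31 was called between the laser times without the dividing wells (0 of 31 by edgeR, and a median log2 of 0.22 in place of 0.29). There Gpr34 differed by 0.72 ± 0.25 (edgeR adjusted p = 0.196).

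Other signature genes stayed low. Tmem119, a surface marker of microglia, had 1654 and 1815 CPM in control, 657 and 820 at day 3 and then 930 and 584 at day 7. Its log2 difference from control was -1.19 ± 0.22 SE at day 3 and -1.15 ± 0.22 at day 7 (edgeR adjusted p = 0.0078), lost without pair P2 of day 7 (0.142). P2ry13, another purine receptor, had 1486 and 1516 CPM, then 411 and 486, then 612 and 708, and was called at day 7 except without pair P1 of day 7 (edgeR adjusted p = 0.0975). Cx3cr1, the fractalkine receptor, had 3523 and 4404 CPM, then 1982 and 2089, then 2375 and 2088, a sustained fall that did not pass without pair P2 of control or without either day 7 pair (edgeR adjusted p = 0.174, 0.138 and 0.245). Sall1, a transcription factor of microglia, had 551 and 618 CPM, then 192 and 229, then 319 and 336, in between and called neither against day 3 nor against control at day 7 (edgeR adjusted p = 0.171 and 0.11). Fcrls went against the list, at 398 and 449 CPM in control, 931 and 875 at day 3 and then 455 and 460 at day 7 (log2 -0.97 ± 0.22 SE, edgeR adjusted p = 0.00777, and 0.0669 without pair P1 of day 7).

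Immediate early genes, which respond to stimuli within minutes, were low at both laser times. Of all genes tested, 10.5% were lower at day 3 and 0.44% at day 7 against control. From day 3 to day 7, 4.49% of all genes rose. Of 16 tested, 11 were lower at day 3 and 4 at day 7 against control, and 1 (Zfp36l1) rose between them, a call lost without any of the 4 laser pairs (edgeR adjusted p from 0.0829 to 0.227). Fos had 306 and 353 CPM in control, 27.4 and 68.7 at day 3 and then 97.6 and 79.6 at day 7. Jun had 720 and 1047 CPM, then 219 and 261, then 189 and 407. Against control at day 7, Fos lost its call without pair P2 of control (edgeR adjusted p = 0.089), Jun without pair P1 of day 7 (0.117), and Dusp6, a phosphatase of MAP kinases, without either of these (0.0563 and 0.0511).

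Several genes of antigen presentation were late rises. H2-D1, a class I heavy chain, had 1042 and 754 CPM in control, 676 and 829 at day 3 and then 1770 and 1725 at day 7 (log2 1.21 ± 0.21 SE against day 3, edgeR adjusted p = 0.000802). Against control it was higher by 1.02 ± 0.21 on the log2 scale (edgeR adjusted p = 0.013). Reads of class I genes can be shared among near-identical copies, so its value is uncertain. H2-Aa, a class II chain, had 1103 and 686 CPM in control, 758 and 1150 at day 3 and then 2446 and 1655 at day 7 (log2 1.09 ± 0.25 SE, edgeR adjusted p = 0.0131). That call was lost without pair P1 of day 7 (0.0917). Ctss, the protease that trims the class II invariant chain, had 7751 and 9148 CPM in control, 5132 and 6986 at day 3 and then 11419 and 12175 at day 7 (log2 0.96 ± 0.18 SE, edgeR adjusted p = 0.00154). Ctss rose in every fit that leaves out 1 pair and without the dividing wells (log2 0.73 ± 0.16, edgeR adjusted p = 0.0147). H2-D1 and H2-Aa did not pass there (adjusted p = 0.247 and 0.215 by edgeR) while both stayed higher than control at day 7 (0.014 and 0.024). Of the class I list 3 of 13 genes rose and 2 fell, and of the class II list 2 of 8 rose and 1 fell. Of all genes tested 4.49% rose and 4.96% fell. The class I rises numbered 1 without pair P1 of day 3 or of day 7, and the class II rises 1 without pair P1 of day 7 and 4 without its pair P2 or either control pair. The 2 that fell in class I, Calr and Pdia3, are chaperones of the endoplasmic reticulum. Cd74, the invariant chain, had 1646 and 239 CPM at day 7, of which a single well held 42.9% in pair P1, and was not called.

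Some uptake and lysosome genes were called between the times, where 4.49% of all genes tested were higher and 4.96% lower. Of 20 uptake receptors and complement genes 2 rose and 0 fell, and 0 rose without pair P1 of day 3 or of day 7. Trem2, a lipid receptor, had 1241 and 938 CPM in control, 621 and 751 at day 3 and then 1262 and 1221 at day 7 (log2 0.85 ± 0.21 SE, edgeR adjusted p = 0.0138). The call was lost without pair P1 of day 3 or either day 7 pair (edgeR adjusted p = 0.154, 0.0704 and 0.0579). Of 33 lysosome genes 3 rose and 2 fell, with 1 rise without pair P1 of day 3, 1 fall without any of the 4 laser pairs and 4 falls without pair P2 of control. Cst3, a cathepsin inhibitor and one of the most abundant transcripts, had 24723 and 17569 CPM in control, 6575 and 8552 at day 3, and 13396 in each pair at day 7 (log2 0.83 ± 0.18 SE, edgeR adjusted p = 0.00633, and 0.0821 without pair P1 of day 3).

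Interferon response genes showed no call between day 7 and day 3 (0 of 22 by edgeR, median log2 -0.08, with at most 1 higher and 2 lower when 1 pair was left out), while 7 were higher at day 3 and 3 at day 7 against control. Over all genes tested, 11.9% were higher at day 3 and 1.38% at day 7 against control. Isg15 had 15.3 and 13.6 CPM in control, 119 and 165 at day 3 and then 84.6 and 79.6 at day 7. Cxcl10 was a sustained rise by the test, with 3 transcripts in control, 43 at day 3 and 44 at day 7, but a single well held 93.8% of them in pair P2 of day 3 and 83.9% in pair P2 of day 7. Without pair P2 of day 7 it missed the threshold against control (edgeR adjusted p = 0.134). Among NF-kB targets 2 of 15 rose (Nfkbia and Cd83) and 0 fell, against 4.49% and 4.96% of all genes tested. Both calls rested on single pairs. With 1 pair left out, log2 ran from 0.81 to 1.59 for Nfkbia and from 1.03 to 1.65 for Cd83. The direction of the list's calls also changed with the pair left out. Ccl2, a chemokine of this list, was lower at day 7 without the dividing wells (log2 -2.05 ± 0.44 SE, edgeR adjusted p = 0.0147). Il1b and Tnf were too low to test, at 0 to 142 and 0 to 168.1 CPM over the 6 pairs.

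Photoreceptor transcripts were higher in the day 7 wells than in the day 3 wells. Of 25 tested photoreceptor genes, 16 were higher at day 7 than at day 3 and 0 lower, against 4.49% of all genes. Their summed level was 6250 and 11020 CPM in control, 3260 and 4819 at day 3 and then 12260 and 14190 at day 7, and none of the 31 listed genes was at 0. Gnat1, rod transducin, was found in 90.0% of control wells, 60.5% of day 3 wells and 84.1% of day 7 wells, and in 72.5%, 33.3% and 64.6% after thinning. Against control at day 7, 0 of the 25 were called by edgeR. Between 12 of 27 (without pair P2 of day 3) and 24 of 27 (without either control pair) rose with 1 pair left out, and 4 of 24 (among them Gnat1, Unc119 and Pde6g) rose without the dividing wells. The list made up 12 of the 52 late rises, and the Müller glia and astrocyte list 2 more (Rlbp1 and Slc1a3). Neither list is complete, since Grk1, the rhodopsin kinase, was also a late rise and is in neither. Photoreceptors do not carry CD45, and how their transcripts came into these wells was not tested. With the photoreceptor genes left out of the fit 308 genes were called. Without wells holding 1% or more of photoreceptor transcripts 234 were, and the late genes numbered 48 in place of 84. Müller glia and astrocyte genes rose in 4 of 6 (Glul, Rlbp1, Slc1a3 and Car2), with summed levels of 1516 and 1665, 566 and 1012, and 1945 and 1584 CPM. With pair P1 of day 7 left out 1 of the list rose. Of these 4, Car2 alone held in every fit that leaves out 1 pair. Without the dividing wells Car2, Glul and Rlbp1 were not called (edgeR adjusted p = 0.0633, 0.303 and 0.574). The part of photoreceptors and Müller glia in the other late rises was not tested.

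**Figure D5:**
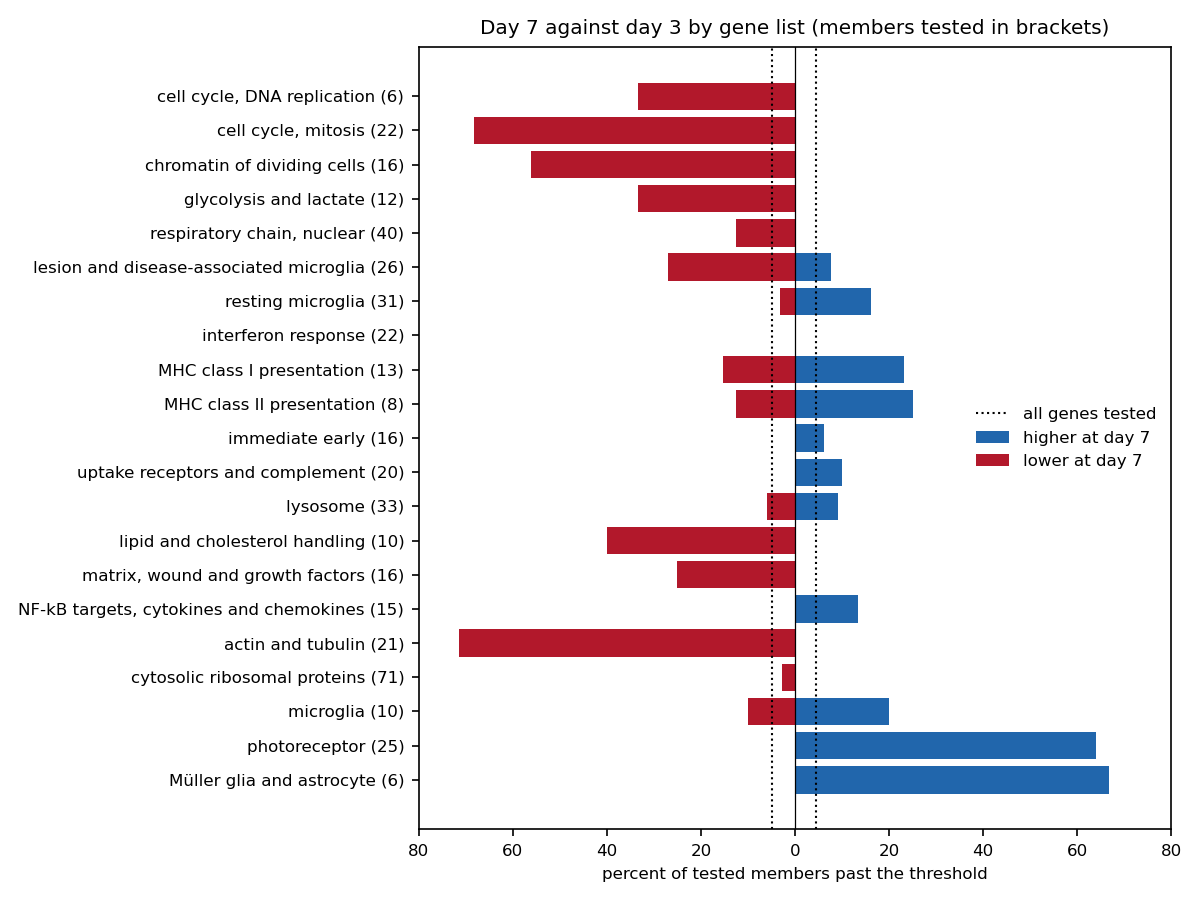
Percent of the tested members of each gene list (number tested in brackets) that were higher (blue, to the right) or lower (red, to the left) at day 7 than at day 3 in microglia, with dotted lines at the shares over all genes tested (4.49% higher and 4.96% lower). Mitosis, chromatin and actin and tubulin genes are lower, and photoreceptor and Müller glia genes are higher. Only lists with at least 6 tested members are drawn. Of the 40 mitosis genes, 22 were tested, some of them only through their day 3 level.

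Few markers of other immune cells were high enough to test. The summed monocyte list had 122 and 102 CPM in control, 895 and 1269 at day 3 and then 403 and 389 at day 7, and its 1 called gene was Fn1. Cxcr2, a chemokine receptor of neutrophils, had 214.4 and 163.1 CPM in control, 27.4 and 27.5 at day 3 and then 123.6 and 168.1 at day 7 (log2 2.35 ± 0.51 SE, edgeR adjusted p = 0.00482), with the rest of its list too low to test and 4 of 10 neutrophil markers not detected. The Cxcr2 call was lost without the dividing wells (edgeR adjusted p = 0.0633) and in DESeq2's Wald test. Ccl5, a chemokine of lymphocytes and activated macrophages, had 36.5 and 55.0 CPM at day 3 and 520 and 142 at day 7. It lost its call without pair P2 of day 3 or pair P1 of day 7 (edgeR adjusted p = 0.218 and 0.137).

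Other genes also had large changes. Lrrc58, a leucine-rich repeat protein, had 2711 and 2379 CPM in control, 6502 and 7063 at day 3 and then 1698 and 2009 at day 7 (log2 -1.87 ± 0.18 SE, edgeR adjusted p = 7.59e-07). Hsp90ab1, a cytosolic chaperone, fell by 1.83 ± 0.22 SE on the log2 scale (edgeR adjusted p = 2.09e-05), and Calr, of the class I list, by 1.53 ± 0.22 (0.000103). Malat1, a nuclear long noncoding RNA, had 8103 and 10331 CPM in control, 2027 and 2446 at day 3 and then 7320 and 5380 at day 7 (log2 1.5 ± 0.19 SE, edgeR adjusted p = 4.11e-05). These 4 genes were called in every fit that leaves out 1 pair and without the dividing wells. Flcn, a regulator of lysosomal signalling, had 91.9 and 122 CPM, then 18.3 and 27.5, then 162.7 and 159.3 (log2 2.69 ± 0.51 SE, edgeR adjusted p = 0.00154). Ccnd1, the cyclin of early G1, was a late fall, at 91.9 and 95.2 CPM in control, 210 and 142 at day 3 and then 26.0 and 17.7 at day 7 (log2 -2.87 ± 0.54 SE, edgeR adjusted p = 0.00154). Neither Flcn nor Ccnd1 passed without the dividing wells (edgeR adjusted p = 0.171 and 0.147). Ptgds, a prostaglandin synthase, had 17 transcripts in control, 0 at day 3 and 18 at day 7, at least 7.38-fold higher at day 7, and lost its call without pair P2 of day 3 or pair P2 of day 7 (edgeR adjusted p = 0.0804 and 0.243). Krt5, a keratin, was called with 26 transcripts at day 7 against 1 at day 3, but a single well held 94.8% of those of pair P1 at day 7, and the call was lost without that pair or pair P2 of day 3 (adjusted p = 0.137 and 0.356 by edgeR).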

How the data were processed

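Transcripts were counted by mCEL-Seq2 in sorted CD45+ cells, and reads were aligned with BWA 0.6.2-r126, per the submitters' processing notes. The build, annotation and counting rule were not given in the sources used here, which leaves the handling of shared reads and strand unknown. For each gene and well the deposited value is an estimated count of molecules, made by the authors from molecular identifiers without normalization. The authors' annotation gives other values, a cell type and a second cell type by signature for each well. Rows of the deposited retina table carry no gene names, so genes were assigned by exact equality of values with the library tables. Of 19989 rows with a transcript, 16779 equalled 1 gene, 3210 equalled several genes with the same values, and 0 equalled none. The authors had left out 96 detected genes, which hold 37.2% of the transcripts of annotated wells and include 15 mitochondrial ones.

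Counts were summed over the microglia wells of each pair, rounded and compared over the 3 retina groups with 2 sums each (3 residual degrees of freedom) in edgeR 4.0.16 (filterByExpr, TMM, robust quasi-likelihood test, R 4.3.3). Changes are log2 ratios, and their SE was taken as the unshrunk ratio over the root of the F statistic. Levels are CPM per pair over the genes in the table. Where a group had 0 transcripts, 3 were assumed for the whole group, which bounds the fold from below, and ratios with 1 to 3 transcripts have 95% counting intervals. No doublet caller was run, since each well received 1 sorted cell. All annotated wells entered.

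By rule the named genes are the called genes with the 12 highest and 12 lowest log2 ratios (pairs apart, 50 CPM or more in the higher group), up to 4 members per list, up to 8 genes per class, and a set of standard microglia genes, 124 in all. The 30 lists comprise 18 pathways and 12 sets of cell type markers. The members, lists and classes were chosen with earlier results of these data known. Promoters are RefSeq windows of build GRCm38.p6, for 27025 genes. Scripts were tested on simulated data. The 22 alternatives include DESeq2 1.42.0, other filters on genes and wells, thinning, single libraries and leaving out each pair, and 3 of them were chosen after seeing the data. The values of some genes are not reported here.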

Additional observations from a re-analysis of the deposited data

Results flagged for a closer look

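With the 4 libraries of a group taken singly, the summed level of the lesion and disease-associated list in library P1-1 of retina control was 25420 CPM. This value stood apart from those of the other 3 control libraries, its gap to the nearest of them being 0.942 of the range of the group, above Dixon's critical value. It was 1 of 24 sets of 4 libraries looked at, and chance alone sets apart about 1 in 20.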

How the results depend on the processing

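The main limits are the 2 sums per group and the uneven number of dividing wells. Of the 121 named genes that could be tested, 96 were called between day 7 and day 3, and 41 of these stayed past the threshold in all 6 fits that leave out 1 pair. Leaving out 1 pair gave 186 to 542 called genes, 72 to 198 resolving rises, 52 to 162 resolving falls, 34 to 93 sustained and 45 to 338 late genes. The share of called genes that were higher moved from 47.5% to 59.5% without pair P1 of day 7 and to 36.4% without dividing wells. DESeq2's Wald test called 66 genes (35 resolving rises, 16 resolving falls, 18 sustained and 15 late), all 66 also called by edgeR. Without a filter on low counts there were 60 resolving falls. Single libraries in place of pairs gave 111 sustained genes. Wells also called microglia by signature gave 186 called genes, with 70, 63, 30 and 53 in these classes. Without wells of 1% or more photoreceptor transcripts 28 genes were sustained and 48 late. Without wells holding 2 or more cell cycle genes, which left 7 wells at day 3, 17 genes were called, with 8, 5, 0 and 4 in the classes, and the log2 differences of Atp5a1 (0.73), Fcgr2b (-0.34) and Glul (-0.50) reversed, the cause of which was not tested. Sums thinned to the smallest gave 120 called genes (55, 42, 30 and 23), and wells thinned to 1000 transcripts gave 43 (22, 14, 7 and 7), where fewer genes were tested. Without dividing wells 22 genes were called (13 resolving rises, 4 resolving falls and 5 late). With the genes that the authors left out 28 were sustained. Prefix as a replicate block gave 414 called genes. The labels tie no prefix to an animal or day, and pairs of the same prefix deviated together little (correlations 0.0199, 0.192 and -0.0793). The share of wells with transcripts of dividing cells was 85.0%, 32.5%, 33.3% and 4.17% in control with 1 or more genes, 3 or more genes, thinned wells and 4 or more mitosis genes, in place of 50.8%. At day 3, with 91.4% by the main definition, 3 or more genes gave 80.2%, thinned wells 71.6% and the mitosis genes 46.9%. At day 7, with 65.5%, the 4 settings gave 88.5%, 42.5%, 34.5% and 7.08%. On the forward strand alone CCAAT lay in 60.6% of mitosis windows. At these depths a gene below about 3 transcripts in a group cannot be told from 0.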
